A study of Mus musculus with 6 samples.

Results

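The genes described here are 43 markers of immune cell lineages, chosen by gene symbol from 55076 rows of gene expression values. They are 4 pan-leukocyte genes, 8 T cell genes, 5 genes of NK and cytotoxic cells, 3 B cell genes, 5 plasma cell and immunoglobulin genes, 7 macrophage genes, 4 dendritic cell genes, 3 neutrophil genes, 2 mast cell genes and 2 signalling adaptors of myeloid and NK cells. All 43 symbols were found once in each table, and 21 of them had a mean of at least 1 FPKM over the mice and were tested. FPKM is the number of fragments per kilobase of exon divided by a factor for each library, so it can be compared between genes.

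RNA-seq was performed on the anterior prostate (AP) of 20-week-old male mice, with 3 OEx and 3 Ctrl libraries labelled as separate samples. Each library is called a mouse here. OEx mice carried Pbsn-Cre with 1 Rosa26 N1ICD allele, which encodes the intracellular domain of Notch1 and is switched on by Cre. Ctrl mice, whose genotype is labelled wild type, carried the same Rosa26 N1ICD allele without Cre according to the study. Cre was driven by the probasin promoter, which is active in prostatic epithelium. RNA came from the gland as a whole after its secretions had been removed, and no cell sorting is described. In bulk tissue, fewer cells of a type and less RNA per cell cannot be told apart.

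Leukocytes of a gland include resident macrophages, dendritic cells and mast cells, lymphocytes of the epithelium and stroma, and cells arriving from blood. Each lineage is read from genes for its own receptors and products, such as the CD3 and T cell receptor chains, granule proteases of cytotoxic cells, immunoglobulin chains, and scavenger or Fc receptors of macrophages. Single markers are rarely exclusive, so the lists are described gene by gene.

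The libraries held 14762182 to 18650962 reads recovered on annotated genes. The factor behind the deposited FPKM values exceeded these reads in the OEx group (ratio 1.22 to 1.35) and fell short of them in the Ctrl group (0.726 to 0.815), so the values already carry a scaling that differs between the groups. Notch1 was at 41.9, 47.6 and 78.9 FPKM in OEx mice 1, 2 and 3, above the 3.34 to 5.55 FPKM of Ctrl mice. The luminal keratin Krt8 was at 291 FPKM or more in every mouse. Replicates 1 and 2 of each group lay close together, with a gene-wise variation beyond counting noise of 6.12% in OEx and 5.57% in Ctrl mice, whereas either of them against replicate 3 gave 26.8% to 28.7%. They differed by more than counting noise and are labelled as separate samples, so they were counted separately, though that spread alone does not show that they came from separate animals. Ctrl replicate 3 also held 16128 summed FPKM of 8 seminal vesicle genes, against 4.36 FPKM or less in every other mouse. Calls that change when OEx or Ctrl replicate 3 is left out are given with the value without it. Without OEx replicate 3, the OEx group is replicates 1 and 2 alone, which lay close together. FDRs of that fit rest on this pair, which is not shown to be from separate animals.

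Of the 21 tested markers, 4 were higher in OEx mice, namely Mrc1, Gzmb, Cd8a and Aif1, with limma at a false discovery rate (FDR) under 0.05 and a fold change over 2. That is 19.0% of the tested markers, beside 12.9% of all 12833 rows tested. None was called lower by limma, where 15.7% of all rows were, and 0 markers were lower at an unadjusted limma p under 0.05. By limma-voom, 0 of 39 markers were called lower, where 14.9% of 19428 rows were. The limma fold changes were above 0 for 20 of the 21, against 46.9% of all rows, and their median was 0.76 on the log2 scale, against -0.08 over all rows. A marker could pass the filter through its high OEx values alone, so these counts describe the tested markers and not all 43.

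The 3 OEx mice were not alike in these genes. Positions were read on the deposited FPKM, which summed to 272224 in OEx mouse 3 and to 467138 to 529972 in Ctrl mice. They were not recounted with libraries scaled to the same total, so here and below they hold for the deposited scaling only. OEx mice 1 and 2 lay above all 3 Ctrl mice for 36 of the 43 markers, where 33.8% of all rows above 0 in any mouse did so. OEx mouse 3 lay above all Ctrl mice for 9 markers, within their range for 24 and below it for 10, and 40.4% of all such rows had OEx mouse 3 above. In 27 of the 43 markers, OEx mice 1 and 2 were above and OEx mouse 3 was not, a pattern held by 6.54% of all rows above 0. Among tested rows, OEx mice 1 and 2 were above for 20 of the 21 markers and 37.2% of all rows. OEx mouse 3 was above for 4 of the 21 and 40.7% of all rows. It was below all Ctrl mice for 6 of the 21 and 44.9% of all rows. The pattern of OEx mice 1 and 2 above and OEx mouse 3 not was held by 16 of the 21 and 3.77% of all rows. The 9 markers with no overlap between the groups, against 27.2% of all rows above 0, were Ptprc, Cd8a, Il7r, Gzmb, Klrd1, Mzb1, Mrc1, Flt3 and Itgax.

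**Figure D1:**
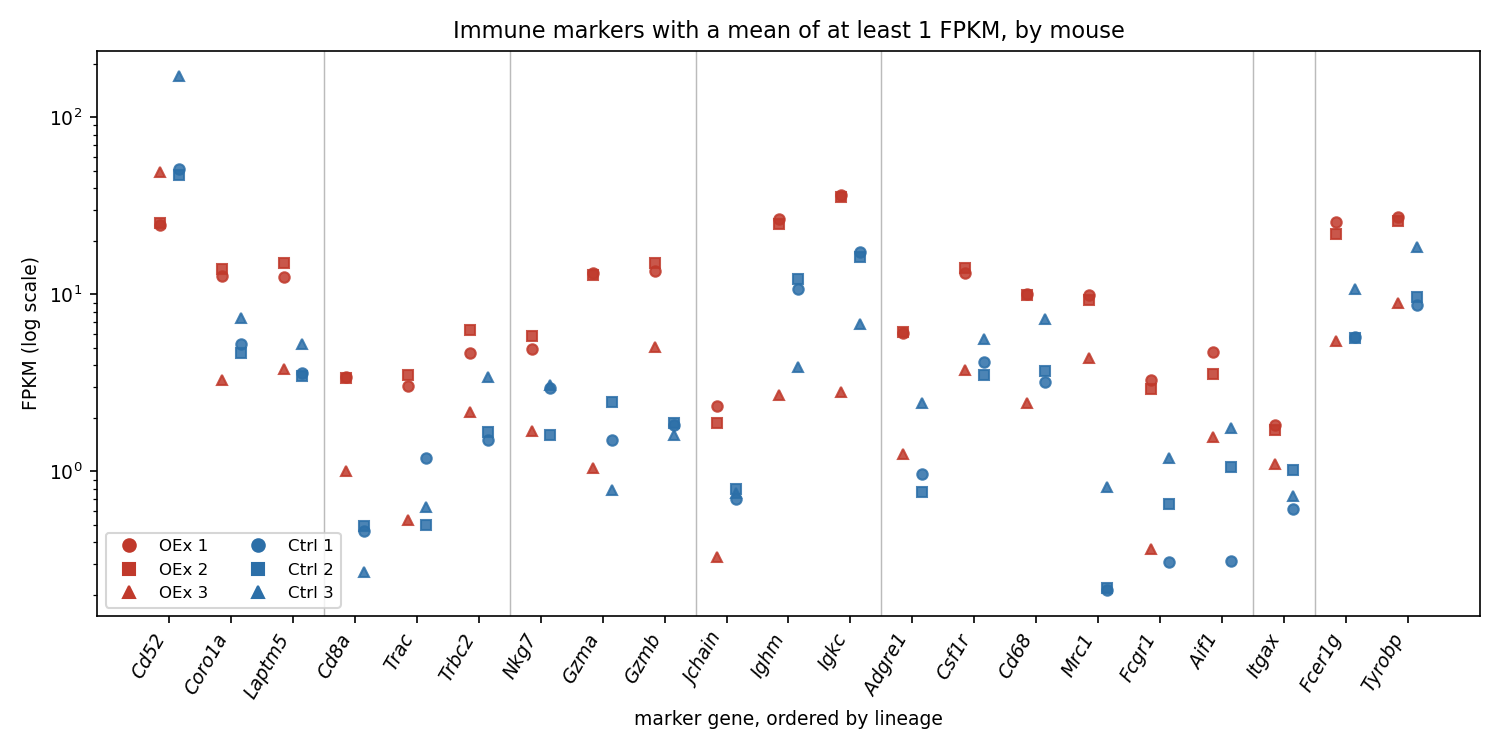
FPKM on a log axis of the 21 tested markers in each mouse, with OEx mice in red, Ctrl mice in blue and the replicate number given by the symbol. OEx mice 1 and 2 sit together at the top for every marker except Cd52, while OEx mouse 3 sits among or below the Ctrl mice for most and above them for Cd8a, Gzmb, Mrc1 and Itgax.

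**Figure D2:**
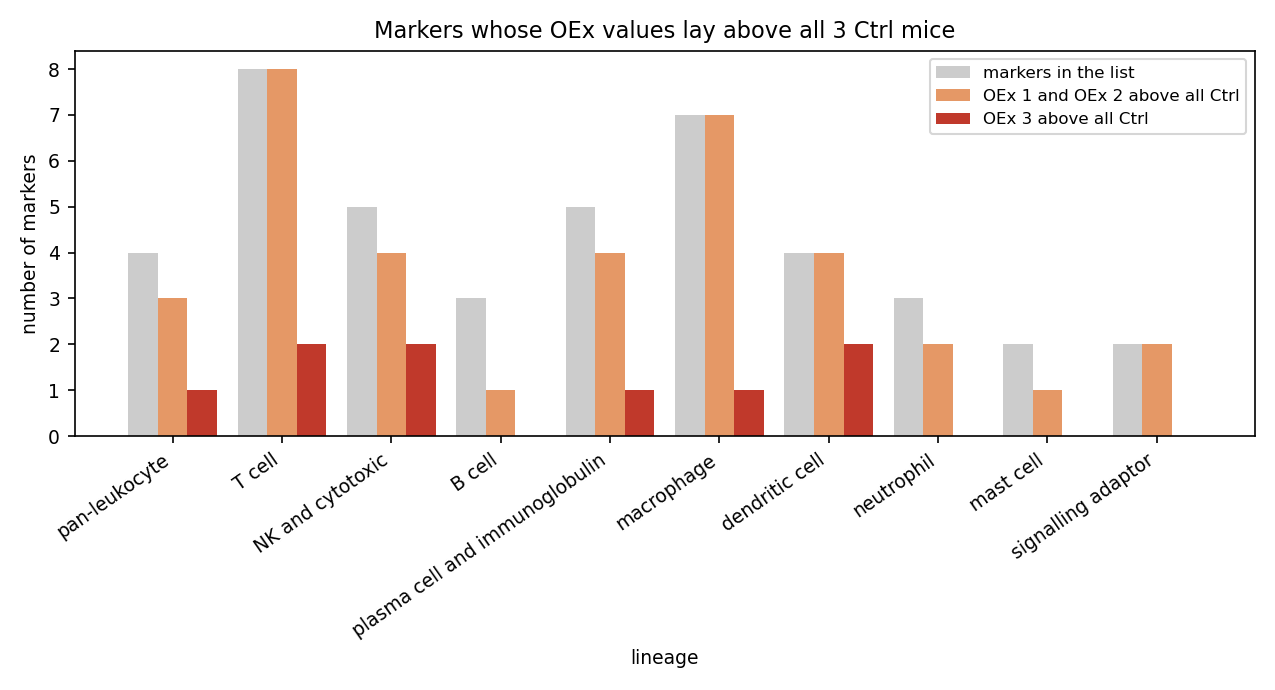
Number of markers per lineage (grey bars), and how many of them had OEx mice 1 and 2 (orange) or OEx mouse 3 (red) above all 3 Ctrl mice. All 8 T cell and all 7 macrophage markers had OEx mice 1 and 2 above, and 2 and 1 of them had OEx mouse 3 above.

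Among the pan-leukocyte genes, Ptprc encodes CD45, the surface phosphatase of nucleated blood cells. It was at 1.85, 1.55 and 0.427 FPKM in OEx mice and at 0.0742, 0.114 and 0.201 FPKM in Ctrl mice, from 677, 650 and 141 reads against 17, 27 and 56. No Ctrl mouse reached the lowest OEx mouse, which was OEx mouse 3. The mean was under the filter, so Ptprc had no test in the main fit, and limma-voom on the recovered reads gave a log2 fold change of 3.14 with an FDR of 0.0260. The exact permutation test of 3 against 3 mice, two-sided, gave p = 0.1, the smallest value it can give.

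Laptm5, a lysosomal membrane protein of blood cells, was at 12.6, 15.0 and 3.80 FPKM in OEx mice and at 3.61, 3.47 and 5.21 FPKM in Ctrl mice. Coro1a, an actin regulator of leukocytes, was at 12.7, 14.0 and 3.28 FPKM and at 5.26, 4.69 and 7.40 FPKM. OEx mice 1 and 2 were high in both genes, OEx mouse 3 was within the Ctrl range for Laptm5 and below it for Coro1a, and so the groups overlapped. The log2 fold changes of 1.01 ± 0.45 (SE) for Laptm5 and 0.52 ± 0.48 (SE) for Coro1a did not pass, with limma FDRs of 0.0851 and 0.368. Without OEx replicate 3 they were 1.55 and 1.10 and both passed, with FDRs of 0.000898 and 0.00347.

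Cd52 ran the other way from the rest. This small surface glycoprotein of lymphocytes, also made by the epididymis, was at 24.7, 25.4 and 49.4 FPKM in OEx mice and at 51.0, 47.2 and 170 FPKM in Ctrl mice. OEx mice 1 and 2 were the lowest of the 6 mice, and OEx mouse 3 lay between Ctrl mice 2 and 1. The log2 fold change was -1.22 ± 0.53 (SE) with a limma FDR of 0.0811, and without Ctrl replicate 3 it was -0.62 with an FDR of 0.130. The high value of Ctrl mouse 3 stood beside its seminal vesicle genes, whose part in it was not tested. Exons of Cd52 overlap those of Crybg2 on the opposite strand, and those of Coro1a overlap Bola2. Whether counting used strand is not given in the sources used here, so reads of such pairs may be shared.

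T cell genes differed by chain. Cd8a, the coreceptor chain of cytotoxic T cells (GRCm38 chr6:71373427-71379173, plus strand), was at 3.40, 3.39 and 1.01 FPKM in OEx mice and at 0.462, 0.488 and 0.271 FPKM in Ctrl mice. The groups did not overlap. The means were 2.60 ± 1.38 and 0.407 ± 0.118 FPKM (SD, n = 3), and the log2 fold change was 1.27 ± 0.32 (SE) with a limma FDR of 0.0113. Values of log2(FPKM + 1) understate the change of low genes, and limma-voom on reads gave 2.56 with an FDR of 0.0216. With replicates 1 and 2 of each group averaged, the FDR of Cd8a was 0.0780.

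Cd4, the coreceptor of helper T cells, held 16, 21 and 3 reads in the OEx group against 5, 10 and 3 in the Ctrl group, too few to read a difference. Its FPKM was 0.228 at most, below that of Cd8a in every mouse. The CD3 chains, which carry the signal of the T cell receptor, were also low. Cd3g was at 1.53, 1.40 and 0.373 FPKM in OEx mice and at 0.269, 0.307 and 0.382 FPKM in Ctrl mice. Cd3e, which shares exon sequence with an opposite-strand gene model, held 84, 55 and 19 reads against 7, 5 and 18. Cd3d held 42, 36 and 9 reads against 11, 13 and 18. In FPKM, OEx mouse 3 was within or below the Ctrl range in all CD3 genes. In reads it was above all Ctrl mice for Cd3e, and for Cd3g with 22 against 11, 13 and 19.

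Trbc2, a constant segment of the receptor's beta chain, had the highest mean of the T cell genes, with 4.64, 6.32 and 2.16 FPKM in OEx mice and 1.502, 1.67 and 3.42 FPKM in Ctrl mice. OEx mouse 3 lay within the Ctrl range. The log2 fold change of 0.71 ± 0.36 (SE) had a limma FDR of 0.117, and without OEx replicate 3 it was 1.05 with an FDR of 0.0198. Trac, the constant segment of the alpha chain, was at 3.06, 3.51 and 0.533 FPKM against 1.20, 0.496 and 0.633 FPKM. Its log2 fold change was 0.79 with an FDR of 0.136, and without OEx replicate 3 it was 1.29 with an FDR of 0.00231. Il7r, the interleukin-7 receptor chain of naive and memory T cells, held 32, 41 and 8 reads in the OEx group against 4, 4 and 2 in the Ctrl group, with no overlap.

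Gzmb, a granule serine protease of cytotoxic T and NK cells (GRCm38 chr14:56258838-56262260, minus strand), had the lowest FDR of the NK and cytotoxic genes. It was at 13.6, 15.1 and 5.05 FPKM in OEx mice and at 1.84, 1.88 and 1.60 FPKM in Ctrl mice. Even OEx mouse 3 was above the highest Ctrl mouse. The means were 11.2 ± 5.41 and 1.77 ± 0.149 FPKM (SD, n = 3), and the log2 fold change was 2.02 ± 0.36 (SE) with a limma FDR of 0.00256. Without OEx replicate 3 it was 2.47 with an FDR of 7.53e-05.

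Gzma, a granule protease of a different cleavage preference, split within the OEx group. It was at 13.3, 12.9 and 1.05 FPKM in OEx mice and at 1.51, 2.46 and 0.785 FPKM in Ctrl mice, so that OEx mouse 3 held 19 reads where OEx mice 1 and 2 held 266 and 296. OEx mouse 3 was within the Ctrl range for Gzma and above it for Gzmb. The log2 fold change of Gzma was 1.57 ± 0.76 (SE) with a limma FDR of 0.109, and without OEx replicate 3 it was 2.50 with an FDR of 0.000793.

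Nkg7, a granule membrane protein, was at 4.94, 5.84 and 1.70 FPKM in OEx mice and at 2.97, 1.61 and 3.10 FPKM in Ctrl mice, with a log2 fold change of 0.46 and a limma FDR of 0.314. The fold change without OEx replicate 3 was 0.87, under the fold threshold, with an FDR of 0.0178. Klrd1, the CD94 chain of NK receptors, held 27, 18 and 22 reads in the OEx group against 3, 7 and 2 in the Ctrl group. It was a marker for which OEx mouse 3 lay between the other OEx mice in FPKM, and limma-voom gave a log2 fold change of 1.91 with an FDR of 0.0235. Prf1, the pore-forming protein of the same granules, held 9, 14 and 5 reads against 1, 2 and 9. At that depth no difference in Prf1 could be read.

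B cell genes were barely detected. Cd79a, a signalling chain of the B cell receptor, held 4, 16 and 0 reads in the OEx group against 0, 0 and 1 in the Ctrl group. Cd79b, its partner, held 14, 9 and 4 reads against 2, 6 and 3, and Ms4a1, which encodes CD20, held 4, 3 and 0 against 4, 6 and 3. None of the 3 B cell genes reached the filter.

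The immunoglobulin genes Igkc and Ighm were more abundant than the B cell genes in every mouse and were lowest in OEx mouse 3. Igkc, the kappa light chain constant segment, had the highest mean of this list, with 36.5, 35.3 and 2.81 FPKM in OEx mice and 17.4, 16.3 and 6.80 FPKM in Ctrl mice. Ighm, the heavy chain of IgM, was at 26.5, 25.0 and 2.70 FPKM and at 10.8, 12.2 and 3.87 FPKM. Replicate 3 of both groups was low in both genes, and OEx mouse 3 was below all Ctrl mice. The log2 fold changes were 0.35 ± 0.91 (SE) for Igkc and 0.60 ± 0.83 (SE) for Ighm, with limma FDRs of 0.748 and 0.542. Without OEx replicate 3 they were 1.45 and 1.55, with FDRs of 0.0197 and 0.0239. Igkc had a fold change below 0 without OEx replicate 1 (-0.20), without OEx replicate 2 (-0.18) and without Ctrl replicate 3 (-0.04).

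Jchain, which joins IgM and IgA into polymers, was at 2.33, 1.88 and 0.330 FPKM in OEx mice and at 0.699, 0.798 and 0.758 FPKM in Ctrl mice, with a log2 fold change of 0.42 and a limma FDR of 0.312. The fold change without OEx replicate 3 was 0.82, under the fold threshold, with an FDR of 0.00208. Igha, the IgA heavy chain, held 77, 73 and 3 reads in the OEx group against 1, 10 and 66 in the Ctrl group. The highest single Igha value, 1.63 FPKM, belonged to Ctrl mouse 3. Mzb1, a chaperone of antibody-secreting cells, was at 1.11, 0.338 and 0.306 FPKM against 0.0883, 0.256 and 0.218 FPKM, with no overlap between the groups. Its exons overlap those of SPATA24 on the same strand, so reads of the 2 genes may be shared. How reads shared by similar immunoglobulin segments were counted is not given in the sources used here.

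The macrophage list held the largest log2 fold change of the 21 tested markers. Mrc1, the mannose receptor of tissue macrophages (GRCm38 chr2:14229392-14332057, plus strand), was at 9.94, 9.33 and 4.37 FPKM in OEx mice and at 0.213, 0.218 and 0.816 FPKM in Ctrl mice. The lowest OEx mouse was above the highest Ctrl mouse, with 502 reads against 79. The means were 7.88 ± 3.06 and 0.416 ± 0.347 FPKM (SD, n = 3), and the log2 fold change was 2.61 ± 0.31 (SE) with a limma FDR of 0.000434. On recovered reads, limma-voom gave 4.38 with an FDR of 0.00157.

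Aif1, the actin-binding protein IBA1 of macrophages (GRCm38 chr17:35170991-35176068, minus strand), was at 4.74, 3.54 and 1.55 FPKM in OEx mice and at 0.313, 1.06 and 1.76 FPKM in Ctrl mice. OEx mouse 3 lay below Ctrl mouse 3, so the groups overlapped. The log2 fold change was 1.05 ± 0.38 (SE) with a limma FDR of 0.0436. This call was the least stable of the 4: it was lost with a pseudocount of 0.1 (FDR 0.0538), with no filter on low values (FDR 0.0872) and with limma-voom (FDR 0.0598). Leaving out OEx replicate 1 or 2 or Ctrl replicate 1 or 2 ended it as well, with FDRs of 0.128, 0.114, 0.122 and 0.0872.

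Csf1r, the receptor for the growth factor macrophages depend on, had the highest mean of this list. It was at 13.2, 14.1 and 3.73 FPKM in OEx mice and at 4.14, 3.53 and 5.59 FPKM in Ctrl mice. OEx mouse 3 was within the Ctrl range, and the log2 fold change of 0.91 ± 0.45 (SE) had a limma FDR of 0.114. Without OEx replicate 3 it was 1.45 with an FDR of 0.00102. Exons of Csf1r overlap those of Hmgxb3 on the opposite strand.

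Adgre1, which encodes the surface antigen F4/80, was at 6.05, 6.13 and 1.25 FPKM in OEx mice and at 0.963, 0.763 and 2.44 FPKM in Ctrl mice. Fcgr1, the high-affinity IgG receptor, was at 3.29, 2.92 and 0.364 FPKM against 0.309, 0.656 and 1.19 FPKM. Cd68, a lysosomal glycoprotein, was at 10.01, 9.95 and 2.42 FPKM against 3.18, 3.69 and 7.28 FPKM. None of these passed with 6 mice, with limma FDRs of 0.0949, 0.185 and 0.456, and all passed without OEx replicate 3, with FDRs of 0.00486, 0.00456 and 0.0288. Cd163, a scavenger receptor for haemoglobin, held 234, 218 and 27 reads in the OEx group against 20, 21 and 77 in the Ctrl group. Its FPKM in OEx mouse 3, 0.274, was below all Ctrl mice, unlike that of Mrc1.

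Dendritic cell genes were low, and OEx mouse 3 was within or above the Ctrl range in all 4. Itgax, the integrin CD11c, was at 1.83, 1.71 and 1.10 FPKM in OEx mice and at 0.616, 1.01 and 0.726 FPKM in Ctrl mice, with no overlap. Its log2 fold change of 0.51 ± 0.17 (SE) had a limma FDR of 0.0331 and stayed under the fold threshold, and without Ctrl replicate 3 the FDR was 0.0682. Counting by FDR alone, 5 of the 21 markers passed with Itgax added, beside 30.7% of all rows. Flt3, a receptor of dendritic cell precursors, held 40, 24 and 6 reads in the OEx group against 3, 0 and 1 in the Ctrl group, and limma-voom gave an FDR of 0.0378. Xcr1, a chemokine receptor of cross-presenting dendritic cells, held 17, 8 and 4 reads against 3, 1 and 1. Zbtb46, a transcription factor of classical dendritic cells, held 81, 126 and 38 reads against 25, 39 and 45.

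The neutrophil genes S100a8 and S100a9 were close to the detection limit. S100a8, a subunit of calprotectin, held 5, 2 and 0 reads in OEx mice and 0 reads in every Ctrl mouse, where 3 reads would have been 0.284 to 0.346 FPKM. S100a9, the partner subunit, held 2 reads or fewer in every mouse. Csf3r, the receptor for granulocyte colony-stimulating factor, held 104, 101 and 10 reads against 9, 3 and 9, so its OEx mouse 3 was within the Ctrl range in FPKM (0.154). Floors cover counting error only.

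Cpa3, a protease of mast cell granules, held 22, 30 and 0 reads in the OEx group against 0, 1 and 7 in the Ctrl group. Kit, the stem cell factor receptor of mast cells and of other cell types, was at 0.242, 0.196 and 0.491 FPKM in OEx mice and at 0.502, 0.303 and 0.657 FPKM in Ctrl mice. Here OEx mice 1 and 2 were the lowest of all, the opposite of Cpa3.

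The signalling adaptors Fcer1g and Tyrobp pass on signals of Fc and other activating receptors in myeloid and NK cells. Tyrobp was at 27.3, 26.0 and 8.89 FPKM in OEx mice and at 8.75, 9.73 and 18.5 FPKM in Ctrl mice. Fcer1g was at 25.5, 22.0 and 5.45 FPKM and at 5.76, 5.66 and 10.7 FPKM. OEx mice 1 and 2 were highest in both, and OEx mouse 3 was within the Ctrl range for Tyrobp and below it for Fcer1g. The log2 fold changes of 0.63 ± 0.46 (SE) and 0.97 ± 0.55 (SE) had limma FDRs of 0.265 and 0.162, and without OEx replicate 3 they were 1.12 and 1.61, with FDRs of 0.0217 and 0.00359.

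**Figure D3:**
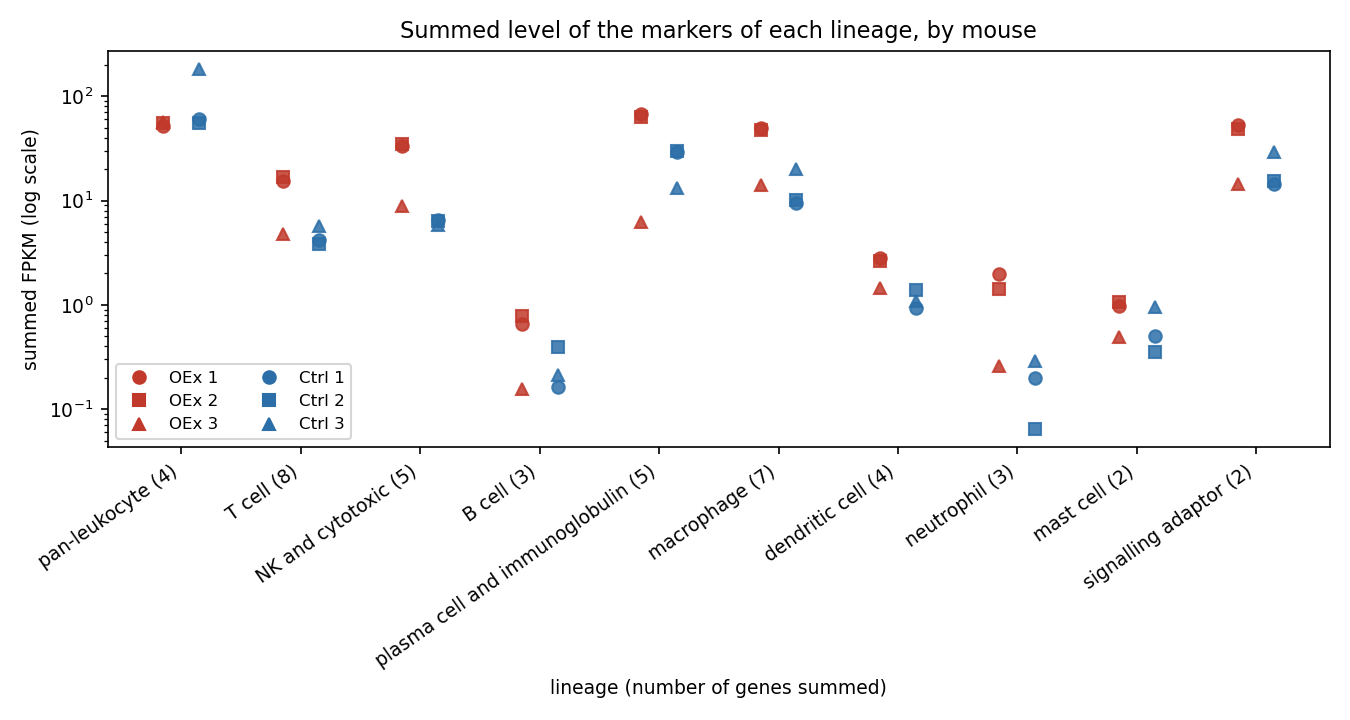
Summed FPKM on a log axis of the markers of each lineage in each mouse, with the number of genes summed in brackets. The NK and cytotoxic sum was 33.0, 34.6 and 8.86 FPKM in OEx mice and 5.82 to 6.54 FPKM in Ctrl mice, and the dendritic cell sum was 2.82, 2.61 and 1.45 FPKM against 0.943 to 1.38 FPKM.

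Summed by lineage, OEx mouse 3 was above all Ctrl mice for the NK and cytotoxic list and for the dendritic cell list. A single gene was most of each sum in OEx mouse 3, Gzmb with 5.05 of 8.86 FPKM and Itgax with 1.10 of 1.45 FPKM. Gene by gene, OEx mouse 3 was above all Ctrl mice for 2 of 5 and 2 of 4 genes, and within their range for the others. The macrophage sum was 49.4, 47.7 and 14.0 FPKM in OEx mice and 9.41, 10.2 and 20.0 FPKM in Ctrl mice, and the T cell sum was 15.4, 16.7 and 4.74 FPKM against 4.22, 3.87 and 5.73 FPKM. For both lists OEx mouse 3 was above Ctrl mice 1 and 2 and below Ctrl mouse 3, which held the seminal vesicle genes. The part of those genes' tissue in these sums was not tested. The plasma cell and immunoglobulin sum was 67.8, 63.8 and 6.21 FPKM against 29.0, 29.8 and 13.3 FPKM, with OEx mouse 3 lowest. The pan-leukocyte sum was 51.8, 55.9 and 56.9 FPKM against 59.9, 55.4 and 183 FPKM, so it was not higher in OEx mice. Cd52, which ran against the other genes, was the largest part of it in every mouse.

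With all 6 mice, 4 markers were called higher, and without OEx replicate 3 there were 17 of 21, where 13.4% of all rows were. The OEx group of that fit was replicates 1 and 2 alone, which lay close together. The median log2 fold change of the 21 was then 1.39, while that of all rows was -0.09. The 13 added markers were Adgre1, Cd68, Coro1a, Csf1r, Fcer1g, Fcgr1, Gzma, Ighm, Igkc, Laptm5, Trac, Trbc2 and Tyrobp. Leaving out any other mouse gave 3 or 4 calls, where 12.6% to 13.1% of all rows were called higher. On recovered reads, where low genes could enter, limma-voom called 6 of 39 markers higher, namely Cd8a, Flt3, Gzmb, Klrd1, Mrc1 and Ptprc, and 21.5% of all rows. It kept the scaling between the groups of the deposited FPKM. Mrc1 and Gzmb were called higher in the main fit and in every alternative tried.

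**Figure D4:**
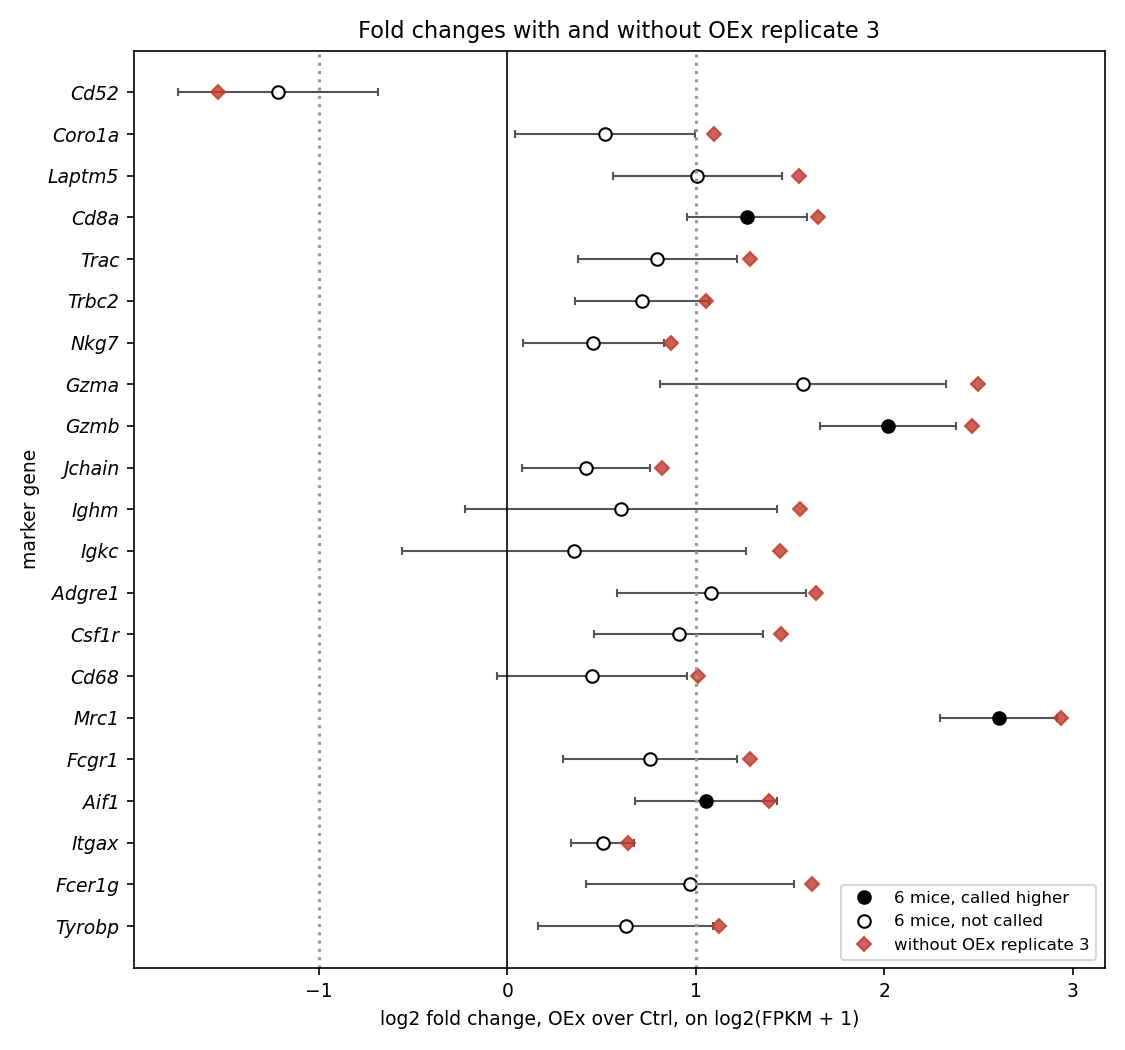
Log2 fold change on log2(FPKM + 1) of the 21 tested markers, as circles with standard errors for all 6 mice (filled where called) and as diamonds without OEx replicate 3, with dotted lines at the fold threshold. Every marker except Cd52 lies to the right of 0 and moves further right without OEx replicate 3.

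The count also moved with the scaling between mice. With each library scaled to the same total FPKM, 13 markers were called higher and 0 lower, where 35.2% of all rows were called higher and 3.98% lower, and the median of all rows shifted from -0.08 to 0.66. Relative to that shift, the median of the markers was 0.74, against 0.84 relative to all rows in the main fit. Scaled to the total without the 20 most abundant genes, 10 markers were called higher, where 27.4% of all rows were. Averaging replicates 1 and 2 of each group left 2 called, Mrc1 and Gzmb, where 12.5% of all rows were called higher.

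Because a Notch transgene defines the OEx mice, the 250 bases upstream of the RefSeq start (build GRCm38.p6) were searched on both strands for letters bound by RBPJ, the DNA-binding partner of the Notch intracellular domain, and by PU.1, a transcription factor of myeloid cells. Windows were found for 29 of the 43 markers, 32 windows in all. The RBPJ letters GTGGGAA were in 2 of the 32 windows, those of Cd3g and Prf1, and in 5.42% of 32851 windows of all genes. The PU.1 letters GAGGAAGT were in 1 window, that of S100a8, and in 2.44% of all windows. None of the 4 called markers had either. After that result was seen, the shorter letters AGGAAG, shared by factors of the ETS family and contained in the PU.1 letters, were searched as well. They were in 17 of the 32 windows and in 29.5% of all windows, and of the called markers only Mrc1 had them, at 3 places. The windows of the 2 markers called under every alternative are shown, with AGGAAG or its reverse complement in capitals. A match is a description of letters and not a binding site.
Mrc1 (GRCm38.p6, chr2:14229164-14229413, plus strand): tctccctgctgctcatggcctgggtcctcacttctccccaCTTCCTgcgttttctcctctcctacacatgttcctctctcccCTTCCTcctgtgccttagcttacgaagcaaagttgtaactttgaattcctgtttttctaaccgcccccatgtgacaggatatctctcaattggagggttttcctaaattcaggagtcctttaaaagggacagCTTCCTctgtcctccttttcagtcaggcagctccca
Gzmb (GRCm38.p6, chr14:56262335-56262584, minus strand): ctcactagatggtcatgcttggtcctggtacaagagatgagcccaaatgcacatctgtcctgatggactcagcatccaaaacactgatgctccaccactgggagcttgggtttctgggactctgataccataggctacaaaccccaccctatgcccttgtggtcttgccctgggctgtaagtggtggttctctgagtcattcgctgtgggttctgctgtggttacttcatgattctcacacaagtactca

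A further list of 87 immune genes of the same lineages and of eosinophils and basophils was counted in the same way. Of these, 29 were tested, 2 were called higher (6.90%, beside 12.9% of all rows) and 3 lower (10.3%, beside 15.7%). Ikzf1, a transcription factor of lymphoid development, was at 6.59, 6.57 and 6.02 FPKM in OEx mice and at 0.512, 0.308 and 0.843 FPKM in Ctrl mice. Its log2 fold change was 2.26 ± 0.15 (SE) with a limma FDR of 4.85e-05, and OEx mouse 3 was close to the other OEx mice, unlike for Ptprc or Laptm5. Cybb, the catalytic chain of the phagocyte oxidase, was at 3.95, 3.48 and 1.10 FPKM against 0.275, 0.399 and 0.906 FPKM, with an FDR of 0.0173. The call of Cybb was lost when OEx replicate 1 or 2 or Ctrl replicate 1 or 2 was left out.

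The genes called lower were Tcf7, a transcription factor of T cells, Batf3, one of dendritic cells, and Derl3, an endoplasmic reticulum protein abundant in secretory cells. Derl3 was at 2.24, 2.61 and 7.03 FPKM in OEx mice and at 99.1, 101 and 94.8 FPKM in Ctrl mice, a level above that of every immunoglobulin gene of the Ctrl mice. Batf3 was at 1.04, 1.01 and 0.451 FPKM against 10.5, 10.2 and 12.4 FPKM, and Tcf7 at 5.40, 4.83 and 5.40 FPKM against 15.8, 15.4 and 12.2 FPKM. In each of these 3 genes every OEx mouse was below every Ctrl mouse. In Ctrl mice, Batf3 was above the marker sum of the dendritic cell list, 0.943 to 1.38 FPKM. Tcf7 was there above the marker sum of the T cell list, 3.87 to 5.73 FPKM. Which cells the RNA of these genes came from was not tested. Lyz2, the lysozyme of macrophages, was at 171, 155 and 7.79 FPKM in OEx mice and 22.0, 23.8 and 54.7 FPKM in Ctrl mice. Its log2 fold change was 0.97 with a limma FDR of 0.482, and without OEx replicate 3 it was 2.37 with an FDR of 0.00349. Lcp1, an actin-bundling protein of leukocytes, was at 10.9 to 13.7 FPKM in every mouse. Without OEx replicate 3, 16 of the 29 were called higher, where 13.4% of all rows were.

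Markers of other cell types were summed in the same mice. The sum of 5 fibroblast genes was 166, 168 and 21.5 FPKM in OEx mice and 46.2, 45.2 and 80.0 FPKM in Ctrl mice, so it was high in OEx mice 1 and 2 and lowest in OEx mouse 3, as the immunoglobulin sum was. OEx mice 1 and 2 were above all Ctrl mice for 3 of these 5 genes, where 37.2% of all tested rows had them above. OEx mouse 3 was below all Ctrl mice for all 5, where 44.9% of all tested rows had it below. The sum of 5 erythroid genes was 14.0, 11.0 and 25.4 FPKM in OEx mice and 38.8, 35.8 and 155 FPKM in Ctrl mice, and so it was not higher in OEx mice 1 and 2. Smooth muscle, endothelial and basal epithelial sums were below all Ctrl mice in every OEx mouse. The part of stromal content in the immune marker values was not tested.

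**Figure D5:**
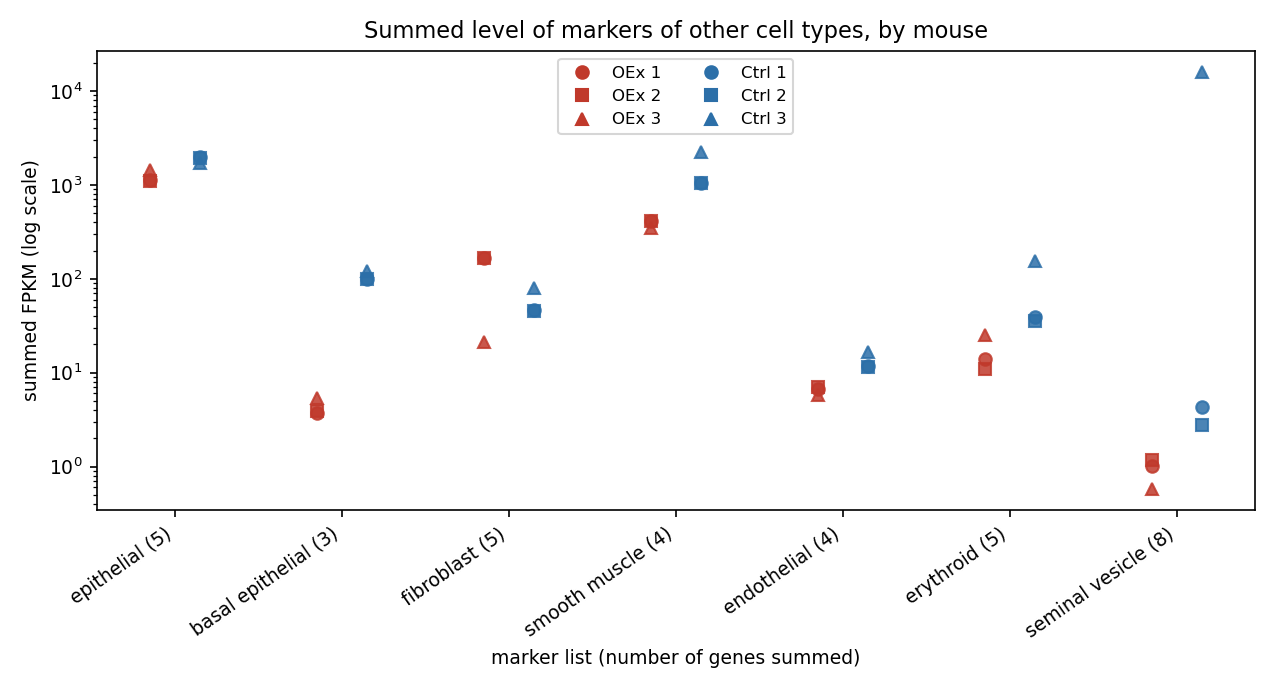
Summed FPKM on a log axis of marker lists of other cell types in each mouse, with the number of genes summed in brackets. The fibroblast sum was 166 and 168 FPKM in OEx mice 1 and 2 and 21.5 FPKM in OEx mouse 3, and the seminal vesicle sum was 16128 FPKM in Ctrl mouse 3.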

How the data were processed

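Total RNA of the AP was sequenced in 6 libraries, 1 for each labelled sample. The values deposited by the authors are FPKM, in a table for each mouse that lists gene symbols. The submitters' processing notes name HISAT2 2.0.5, featureCounts 1.5.0-p3, StringTie 1.3.3b and CASAVA, and the genome build is not given in the sources used here. Reads were recovered from the FPKM values and the exon lengths of GENCODE vM21 (GRCm38) for 53636 of 55076 rows matched by symbol. In each mouse, 96.9% to 97.5% of values came out whole within 0.05 reads. Molecules were not tagged as far as the sources used here say, and duplicate reads cannot be set apart. Csf1r and Mzb1 did not come out whole, so no reads are given for them.

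The groups were compared by limma (version 3.58.1, R 4.3.3). It was fitted to log2(FPKM + 1) of the 12833 rows whose mean reached 1 FPKM, with an intensity trend and no covariate besides the group. Calls needed an FDR under 0.05, adjusted over all those rows by Benjamini-Hochberg, and an absolute log2 fold change above 1. Permutation tests were exact and two-sided. Nothing states how the mice were raised or handled together. The p-values treat the libraries of a group as separate animals, which is not shown for replicates 1 and 2. Alternatives were other pseudocounts, filters and scalings, limma-voom on recovered reads (rows with at least 10 reads), a replicate block and each mouse left out. The limma-voom fit took the factor behind the deposited FPKM as library size, so it kept the scaling that differs between the groups. The steps were tested on simulated data. Values were tabulated in Python 3.11.15 (pandas 2.3.3, numpy 2.4.6, scipy 1.17.1) and drawn with matplotlib 3.10.9.

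The members, the other lists and the tests were chosen with earlier results of these data known. Full statistics are given for the pan-leukocyte genes, the called genes and the gene with the highest mean of each lineage. Of the other lists, called genes and up to 2 per lineage with the highest mean are named. Any other gene with statistics was chosen after its values were seen. 1 gene of the epithelial list is not reported here.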

Additional observations from a re-analysis of the deposited data

How the results depend on the processing

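The 4 markers called higher became 13 with libraries scaled to the same total, 10 with the same total without the 20 most abundant genes, 17 without OEx replicate 3 and 2 with replicates 1 and 2 of each group averaged, an alternative chosen after seeing the data. Leaving out each mouse in turn gave 3 to 17 markers higher and 0 lower, and 1 to 16 of the other immune genes higher and 3 lower. In those fits 12.6% to 13.4% of all rows were higher and 15.5% to 15.9% lower. The median log2 fold change of the markers was then 0.51 to 1.39. With the replicate block, 3 markers were higher and 1 lower, Cd52 (FDR 0.0102), and 1 of the other immune genes was higher, while 12.6% of all rows were higher and 15.5% lower. The deviations of same-numbered mice from their group means correlated at -0.194, -0.189 and -0.307. With 3 mice a group these correlations depend on each other and cannot show whether the mice were paired. The block is given for completeness. The 2 of 29 other immune genes called higher became 4 with a pseudocount of 0.1, where 18.0% of all rows were called higher. With that pseudocount and a mean of at least 0.1 FPKM there were 5 of 53, beside 21.1% of all rows. With the same total 13 were called (35.2% of all rows), and 10 with that total without the 20 most abundant genes (27.4%). With the same upper quartile there were 4 (18.3%). By limma-voom 6 of 64 were called, beside 21.5% of all rows. With replicates 1 and 2 averaged there was 1 (12.5% of all rows), and by FDR alone there were 4 (30.7%). The 3 called lower became 5 by FDR alone, where 36.5% of all rows were lower. Of 12833 rows, 1653 were higher and 2021 lower in the main fit, 4512 and 511 with the same total, and 3512 and 722 without the 20 most abundant genes. With the same upper quartile 2346 were higher and 1327 lower. With the lower filter there were 4254 and 2987 of 20134 rows, and with limma-voom 4174 and 2889 of 19428. With each mouse left out, the log2 fold change of Igkc ran from -0.20 to 1.45 and that of Lcp1 from -0.0744 to 0.0748. The causes of these changes were not tested. With 3 mice a group, an exact test cannot go below p = 0.1, and markers at a few reads could not be compared at this depth.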
